A study of Mus musculus with 12 samples.

Results

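Uninduced day 4 cells held 2186 accessible domains that were seen in none of 5 other conditions of an embryonic stem cell (ESC) to motor neuron (MN) differentiation profiled by ATAC-seq. These no Dox only domains were chosen by coordinates: each lay on chromosomes 1 to 19, X or Y, was at least 150 bp wide, and overlapped no domain of the EB, progenitor, iHoxc6, iHoxc9 or iHoxc10 list by 1 bp or more. They made up 4.85% (95% Wilson interval 4.65 to 5.05) of the 45088 no Dox domains of that width. The presence or absence of a domain in each list chose them, so this share is a description that carries no finding of its own. Counted in the same way, 26.3% of EB, 8.04% of progenitor, 2.85% of iHoxc6, 5.14% of iHoxc9 and 2.81% of iHoxc10 domains were seen in that list only.

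Mouse ESCs were grown as embryoid bodies (EBs) and patterned with 1 µM retinoic acid (RA) and 0.5 µM of the Hedgehog agonist SAG. EBs before patterning and progenitors after 2 days of RA and SAG came from the parental line, Ainv15(iCre). The no Dox cells came from the Ainv15(iFlag.Hoxc6) line and received RA and SAG until day 4 without doxycycline (Dox). The iHoxc6 cells were the same line with 3 µg/mL Dox for the last 48 h, and iHoxc9 and iHoxc10 cells were the Ainv15(iFlag.Hoxc9) and Ainv15(iFlag.Hoxc10) lines under the same RA, SAG and Dox regime. Per the study's methods, each inducible line carries 1 transgene copy at the HPRT locus, and day 4 cultures mix postmitotic MNs with interneurons. Each of the 6 groups had 2 samples, which were pooled by the authors into 1 list of domain starts and ends, without heights or read counts. No spread between replicates and no test could therefore be had, read depth is unknown, and the Wilson intervals given below cover the counting of domains only.

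The no Dox list differed from the other lists in more than the condition. It is laid out with further columns that do not vary, and it is titled for a different day from the sample labels and for a p threshold that the other titles lack. Its closest neighbouring domains were 37 bp apart, whereas the smallest gap was 103 bp in progenitors and above 200 bp in the remaining lists. It held 88806 domains, against 56232 in iHoxc10 to 94875 in EBs. Of domains of 150 bp or more it held the most, 45088, against 31062 in iHoxc9 to 41797 in EBs. Calling settings and condition cannot be told apart in any share given here. Only iHoxc6 came from the same line, so for the other 4 lists line and condition cannot be told apart either. No Dox domains of 150 bp or more covered 0 bases of the Hoxc6 exons, whereas iHoxc6 domains covered 581 bases. The other lists were not read in this way, so these values do not check the day or the line of the no Dox list.

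Accessible domains are stretches that the Tn5 transposase can cut because nucleosomes are displaced, mostly at promoters and enhancers. Promoter accessibility is largely shared between cell types, while enhancers open and close as cells move from progenitors to neurons. In spinal cord differentiation, RA and Hedgehog signals set up Olig2-expressing progenitors, proneural factors such as NEUROG2 drive cell cycle exit, and LIM homeodomain, Onecut and Ebf factors act in newborn MNs. Hox proteins then assign MNs to columns and pools along the body axis.

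The following 200 bp windows are the centres of the widest no Dox only domain nearest to a gene of each of 5 lists, and of an isolated wide domain, and show what kind of sequence the domains hold. They are given 5′ to 3′ on the + strand of GRCm38 (mm10), from the RefSeq copy of the assembly, with matches to TAAT on either strand in capitals. TAAT is the core letter run of central Hox and many other homeodomain sites. CAGATG, an E-box of NEUROG and NEUROD proteins, was marked likewise and is in none of these windows. Slit2 encodes an axon guidance ligand that MNs release, and its window lies in an intron at chr5:48140240-48140439. Intergenic below means outside protein-coding genes. The gene of Etv4, a motor pool transcription factor, has its window in intergenic sequence 5.81 kb from the TSS, the transcription start site, at chr11:101791252-101791451. The window nearest to Onecut1, a transcription factor of newborn MNs, is intergenic and lies at chr9:74848781-74848980. The window of Hoxc5, the gene of an anterior Hox protein, lies in its intron at chr15:103012185-103012384. The window nearest to Neurod4, a proneural factor, lies at chr10:130298738-130298937 in a domain that is 68.3% repeat sequence. The isolated domain lies 147 kb from the nearest protein-coding start site, that of Cmpk2, at chr12:26621243-26621442.
Slit2: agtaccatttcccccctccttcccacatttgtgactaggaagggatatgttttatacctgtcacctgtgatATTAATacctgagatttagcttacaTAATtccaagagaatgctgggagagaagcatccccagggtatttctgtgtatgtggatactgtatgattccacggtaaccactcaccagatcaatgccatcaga
Etv4: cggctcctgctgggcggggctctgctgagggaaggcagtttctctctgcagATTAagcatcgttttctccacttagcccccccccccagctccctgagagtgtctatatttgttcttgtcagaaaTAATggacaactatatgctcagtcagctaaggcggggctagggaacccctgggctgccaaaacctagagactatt
Onecut1: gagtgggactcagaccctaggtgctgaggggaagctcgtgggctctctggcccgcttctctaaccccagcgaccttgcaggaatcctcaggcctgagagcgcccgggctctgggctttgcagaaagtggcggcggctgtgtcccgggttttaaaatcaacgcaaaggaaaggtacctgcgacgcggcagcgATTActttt
Hoxc5: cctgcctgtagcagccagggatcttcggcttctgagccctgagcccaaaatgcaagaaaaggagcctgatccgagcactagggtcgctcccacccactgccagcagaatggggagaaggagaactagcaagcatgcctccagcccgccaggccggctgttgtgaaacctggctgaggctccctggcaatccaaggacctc
Neurod4: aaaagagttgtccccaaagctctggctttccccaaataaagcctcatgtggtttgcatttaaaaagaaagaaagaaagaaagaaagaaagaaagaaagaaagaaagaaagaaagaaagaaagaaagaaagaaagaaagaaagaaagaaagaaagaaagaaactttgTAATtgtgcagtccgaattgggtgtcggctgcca
Cmpk2: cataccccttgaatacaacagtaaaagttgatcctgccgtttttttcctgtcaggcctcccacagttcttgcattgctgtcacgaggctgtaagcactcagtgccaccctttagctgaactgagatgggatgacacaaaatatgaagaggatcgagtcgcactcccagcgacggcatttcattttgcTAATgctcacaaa

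The no Dox only domains were narrow. Their median width was 223 bp (95% interval 220 to 226), against 440 bp in the 42902 no Dox domains that another list also held. Of the 2186, 793 were under 200 bp wide, 1060 were 200 to 299 bp, 300 were 300 to 499 bp and 33 were 500 bp or more. They made up 12.2% of all no Dox domains in each of the narrowest width classes, 2.83% (2.53 to 3.16) at 300 to 499 bp and 0.292% (0.208 to 0.409) from 500 bp to below 1000 bp. Of the 7922 no Dox domains of 1000 bp or more, 0 were seen in no Dox only, with an upper Wilson bound of 0.0485%. Thus, wide no Dox domains almost without exception overlapped a domain of another condition by at least 1 bp, and the widest domain seen in no Dox only measured 767 bp. A wider domain has more bases at which the 1 bp limit can exclude it. The part of this rule in the trend with width was not tested. The other lists had similarly narrow domains of their own, with median widths of 215 bp for those seen only in iHoxc6 to 248 bp for those seen only in EBs.

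**Figure D1:**
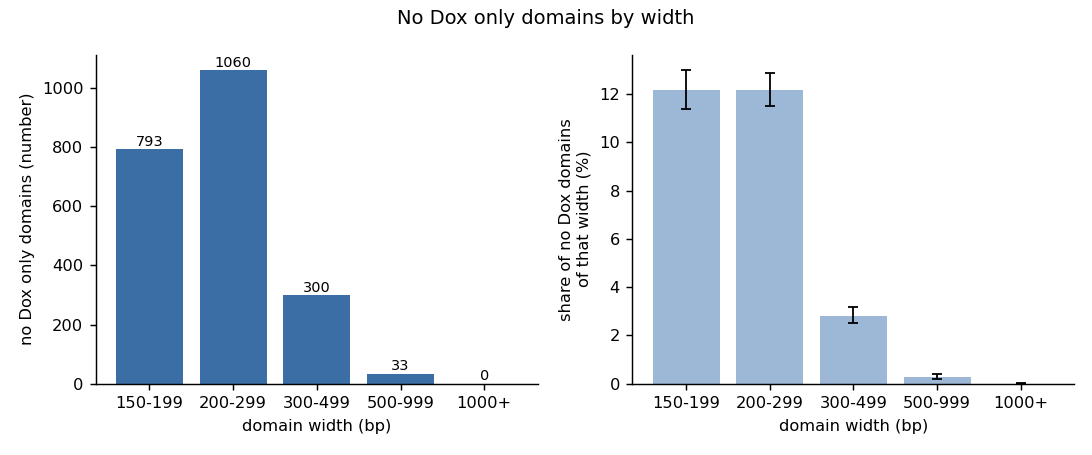
Number of no Dox only domains (left) and their share of all no Dox domains of the same width in percent (right), by domain width in bp. Error bars are 95% Wilson intervals for counting only. The share is 12.2% in both classes under 300 bp and 0 of 7922 at 1000 bp or more. A wider domain has more bases at which an overlap of 1 bp can exclude it.

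The values at the edge of the rule were as follows. There were 23 no Dox only domains of exactly 150 bp, and 21 further domains that no other list overlapped were 1 bp too narrow. Among the 43718 no Dox domains narrower than 150 bp, 21982 (50.3%) overlapped no other list. At the overlap limit, 1 domain abutted a domain of another list without sharing a base, and 29 no Dox domains fell outside the set through an overlap of 1 to 10 bp in all. The smallest such overlaps were 1 bp with an iHoxc6 domain, at the 704 bp domain chr3:93807023-93807726 among the Tdpoz genes, 1 bp with a progenitor domain at chr7:126429744-126429998, and 2 bp with a progenitor domain at chr1:75388660-75388842. The line between a shared domain and a no Dox only domain thus ran through a continuum of small gaps and small overlaps.

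Many no Dox only domains lay beside sequence that was accessible in other conditions. The median gap to the nearest domain of another list was 1131 bp. Of the 2186, 426 (19.5%) lay within 200 bp of a domain of another list, 1048 (47.9%) within 1 kb and 1660 (75.9%) within 5 kb, leaving 526 that were more than 5 kb from any of them. Taken list by list, the median gap was 3188 bp to iHoxc6 domains and 3735 bp to progenitor domains, against 4861 bp to EB, 5893 bp to iHoxc9 and 6133 bp to iHoxc10 domains. The iHoxc9 and iHoxc10 lists hold the fewest domains, and the part of list length in these gaps was not tested. At 0.5 to 1.5 kb from the centres, 6.48% of positions lay in a progenitor domain and 6.44% in an iHoxc6 domain, compared with 2.51% and 2.57% at 4 to 5 kb. Coverage near the centres relative to that at 4 to 5 kb was 2.28 times for EBs and 2.64 times for iHoxc9, with the other lists between these values. For comparison, 5196 no Dox domains were new at day 4, that is, absent from the EB and progenitor lists, but held by at least 1 induced list. Around those, coverage by progenitor domains was 2.89% at 0.5 to 1.5 kb and 1.63% at 4 to 5 kb. Coverage relative to that at 4 to 5 kb was 1.58 times for EBs and 2.07 times for iHoxc9, with the other lists between these values. By definition, EB and progenitor domains do not overlap the domains of this set, while induced domains can. Shares within 200 bp, 1 kb and 5 kb of another list are not given for this set.

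**Figure D2:**
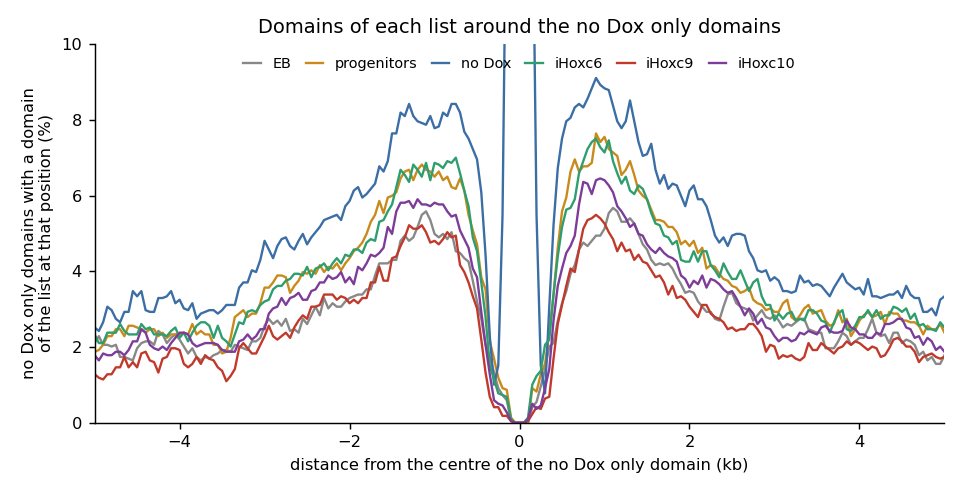
Share of the 2186 no Dox only domains (percent) that have a domain of each list at a given distance from their centre (kb), read every 50 bp. The no Dox curve reaches 100% at the centre and is drawn to 10%. The curves of all other lists fall to 0 at the centre, which the rule fixes, and are higher at about 1 kb than at 5 kb.

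Leaving out the list of the same line had the largest effect of any single list on membership. A further 1331 no Dox domains (2.95%) were held by iHoxc6 and by no other list, and 951 (2.11%) by progenitors alone. By EBs, iHoxc9 or iHoxc10 alone, 268, 255 and 330 were held. At the other end, 21468 no Dox domains (47.6%) were held by all 5 other lists. Domains seen in no Dox only were thus the smallest class by the number of other lists that shared a domain, with 3135 for 1 list, 4487 for 2, 5829 for 3 and 7983 for 4.

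With regard to genes, no Dox only domains were mostly distal. Of the 2186, 971 (44.4%, 42.3 to 46.5) were intergenic, 885 (40.5%, 38.4 to 42.6) lay in introns of protein-coding genes, 78 (3.57%) in exons and 252 (11.5%, 10.3 to 12.9) within 1 kb of the TSS of a protein-coding gene. Their median distance to a TSS was 24.6 kb (21.4 to 28.6). Of the no Dox domains shared with another list, 35.2% were at promoters, so that 1.64% of promoter domains and 6.5% of distal domains were seen in no Dox only. Among domains of equal width below 500 bp the promoter shares lay closer together. Under 200 bp, 10.7% (8.75 to 13.1) of no Dox only and 10.4% (9.68 to 11.3) of shared no Dox domains were at promoters, and at 200 to 299 bp the shares were 12.1% (10.2 to 14.2) and 12.8% (12.1 to 13.6). At 300 to 499 bp they were 11.7% (8.51 to 15.8) and 17.9% (17.2 to 18.7). From 500 bp to below 1000 bp they were 12.1% (4.82 to 27.3) of 33 and 44.8% (43.8 to 45.7) of 11285 domains. In that class the shares did not lie closer together. Domains new at day 4 and shared with an induced list were at promoters in 6.25% (5.63 to 6.95), and the domains seen in only 1 of the other lists in 1.88% (iHoxc9) to 8.34% (EBs). The interval of the no Dox only share overlapped none of these. Within the width class of 200 to 299 bp the share was 12.1% against 6.92% (5.86 to 8.16) for domains new at day 4.

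**Figure D3:**
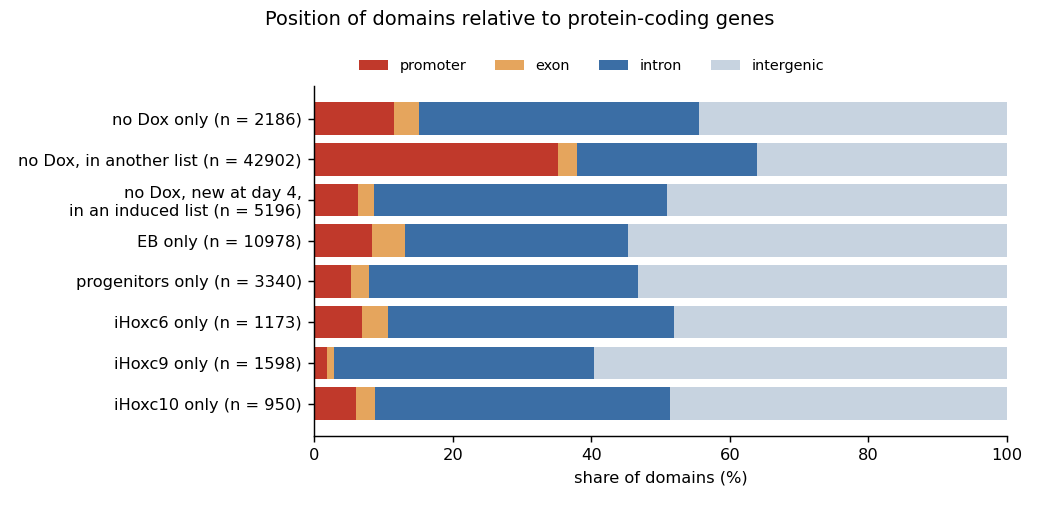
Share of domains (percent) at promoters (within 1 kb of a TSS of a protein-coding gene), in exons, in introns and in intergenic sequence, for no Dox only domains and for the sets they are compared with. No Dox only domains have 11.5% at promoters, against 35.2% of no Dox domains shared with another list and 1.88% to 8.34% of the domains seen only in one other list.

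The promoter domains mostly lay close to a domain of another list, at genes where each other list held a domain on some TSS. Of the 252, 213 (84.5%) lay within 1 kb of a domain of another list, compared with 835 of 1934 distal domains (43.2%). For 187 of the 252 (74.2%) each of the 5 other lists held a domain on a TSS of the gene, and for 27 none did. The lists were read separately, so the TSS need not be the same in each. The same share was not taken over all no Dox promoter domains, so whether it differs from theirs is not known. Among domains more than 1 kb from any other list, 3.43% (2.52 to 4.65) were at promoters, and among those more than 200 bp but at most 1 kb away 21.9% (18.8 to 25.3). No Dox only domains at promoters had a median GC content of 52.2%, and distal ones 47.7%.

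A total of 34 domains covered a TSS of a protein-coding gene itself. For 20 of these, each of the 5 other lists held a domain on another TSS of the gene, not necessarily the same one. For 8 of the 34, no other list held a domain on a TSS of the gene. These were Fxyd5, Gfi1, Gm20219, Klrg1, Npas4, Pcdha9, Prr32 and Slco2b1. The genes described next were picked from the 34 after these values were seen, most of them for a known role in neurons. The TSS of Prph, which encodes the intermediate filament peripherin of MNs and sensory neurons, lay under a 263 bp domain at chr15:99055002-99055264, 287 bp from a domain of iHoxc6, the one other list with a domain on a Prph TSS. Npas4, the gene of an activity-induced transcription factor, had its TSS under a 163 bp domain at chr19:4989802-4989964. No other list held a domain on any of its 3 annotated TSS, but a domain of another list lay 301 bp away. Nrn1, which encodes the neurite growth protein neuritin, had a 420 bp domain at chr13:36735130-36735549, 42 bp from a domain of another list. EBs were the one other list with a domain on a Nrn1 TSS. The gene of the LIM homeodomain factor Lhx9 had a 189 bp domain at chr1:138847435-138847623, 28 bp from another list's domain, and EBs and progenitors held a domain on a Lhx9 TSS. At Gfi1, a zinc finger repressor, the domain was 429 bp wide (chr5:107725736-107726164) and lay 94 bp from a domain of another list, yet no other list covered a Gfi1 TSS. Foxp2, a forkhead factor, stood at the other end, with a 186 bp domain on 1 of its 16 annotated TSS while all 5 other lists held a domain on a TSS of the gene. Hence, most of the covered start sites belonged to genes where every other list held a domain on another start site, not necessarily the same one. How often this holds for all no Dox domains on a TSS was not counted.

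No Dox only domains were then assigned to the nearest protein-coding TSS, which gave 1800 genes, 11.9% of the 15149 genes with a no Dox domain. Of these, 1519 had 1 domain, 211 had 2 and 51 had 3. Over 335 genes in 20 lists, from Hox genes to glial genes, 98 genes had at least 1, and 140 of the 2377 no Dox domains nearest to listed genes were seen in no Dox only (5.89%, 5.01 to 6.91). For distal domains alone the share was 6.65% near listed genes and 6.5% over all genes. Of the 140, 12 were at promoters, 69 lay within 1 kb of a domain of another list and 31 were more than 5 kb away. The share near listed genes was therefore close to that over all genes.

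MN identity genes had a share near the 4.85% over all no Dox domains. Of 16 MN identity and cholinergic genes, 4 had a domain, and 6 of 144 no Dox domains (4.17%, 1.92 to 8.79) were seen in no Dox only. Slit3, a guidance ligand of MNs like Slit2, had 3 in its introns, at 13.8, 66.6 and 77.5 kb from the TSS. Its 33 no Dox domains exceeded the 23 of iHoxc6, 24 of iHoxc10, 17 of progenitors, 15 of iHoxc9 and 7 of EBs. These and later counts per gene are of domains of 150 bp or more, of which the no Dox list held the most. Slit2, Prph and the cardiac and branchiomotor T-box gene Tbx20 had 1 no Dox only domain each. Isl1, Mnx1, Lhx3 and Chat, which define MNs and their transmitter, had none.

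Motor column and pool genes had 12 of 165 (7.27%, 4.21 to 12.3), over 9 of 15 genes. Foxp1, which marks limb-innervating MNs of the lateral motor column, had 3: an exonic domain of 211 bp at chr6:98953061-98953271, and intronic domains of 200 bp at chr6:99283452-99283651 and of 170 bp at chr6:99329706-99329875. The second lay 16756 bp from the nearest domain of another list, in EBs. Runx1, a factor of motor pools and sensory neurons, had 2, at 254 and 378 kb from its TSS, and Etv4, Pou3f1, Epha4, Mecom, Nkx6-2 and Nr2f1 had 1 each. The total number of no Dox domains nearest to Foxp1 was 14, compared with 11 in progenitors and 16 in iHoxc9, so that Foxp1 had no more domains without Dox than with Hoxc9.

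Ventral progenitor factors had 4 of 109 (3.67%, 1.44 to 9.06). Olig2, the MN progenitor factor, had 2 of these, 170 and 336 bp wide, at 30.7 and 40.8 kb from its TSS, and Foxa2 of the floor plate and Dbx1 of interneuron progenitors had 1 each. Among proneural and Notch genes there were 9 of 146 (6.16%, 3.28 to 11.3). The Notch ligand gene Jag1 had 3, and the Notch ligand gene Dll1 had 1 of 210 bp that ended 447 bp from a TSS. Among the remaining proneural and Notch genes, Neurod4, the Notch modifier gene Lfng and the neuronal zinc finger gene Myt1 had 1 each, and Myt1l had 2. The Lfng and Neurod4 domains were 70.6% and 68.3% repeat sequence. Onecut and Ebf genes had 4 of 66 (6.06%, 2.38 to 14.6): Ebf1 had 2 in an intron, and Ebf3 and Onecut1 1 each. Spinal interneuron factors had 13 of 187 (6.95%, 4.11 to 11.5), with 3 at Nfia and 2 each at Bhlhe22 and Zfhx3.

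Of 39 Hox genes, 4 had a no Dox only domain, 5 of 97 domains in all (5.15%, 2.22 to 11.5). The genes included Hoxb3, Hoxc5 and Hoxc6, of the anterior and central groups, and none of the domains lay near a gene of paralog groups 7 to 13 or in the HoxD cluster. The HoxD cluster held 19 no Dox domains. With 5 no Dox only domains near Hox genes in all, no preference along the clusters can be read from these absences. The pair at Hoxb3 were each 169 bp wide, at chr11:96326781-96326949 and chr11:96342604-96342772. At Hoxc6, a 246 bp domain at chr15:102999679-102999924 lay 605 bp from an annotated TSS and 146 bp from an iHoxc10 domain. It covered 0 bases of the Hoxc6 exons, where reads of the transgene could also map. The Hoxc5 domain, of 251 bp and 61.4% GC, is the one printed above. In the 10 kb around it, domains covered 863 bp in EBs, 1442 bp in progenitors, 1936 bp in no Dox, 2660 bp in iHoxc6, 1726 bp in iHoxc9 and 1818 bp in iHoxc10, so that this stretch was open in every condition. The Hox cofactor genes of the TALE class had 9 of 121 (7.44%, 3.96 to 13.5), including 3 at Meis2, 2 at Meis1 and 1 at Pknox2. Within 50 kb of Hprt, the site of the transgene, 0 of 1 no Dox domain was seen in no Dox only.

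Among signalling and neuronal genes the shares ranged from 3.66% to 9.86%. Hedgehog pathway genes had 7 of 71 (9.86%, 4.86 to 19.0). Of these, 3 lay at Ptch1, the receptor gene that Hedgehog signalling itself induces, at 1.62, 3.93 and 4.29 kb from a TSS, and 2 at Gas1, 1 at Cdon and 1 at Smo. The Smo domain was 99.0% repeat sequence. RA response genes had 3 of 82 (3.66%, 1.25 to 10.2), 1 each at Rarb, Cyp26b1 and Stra6. Neuronal structure and synapse genes had 26 of 358 (7.26%, 5.00 to 10.4), over 16 of 36 genes, and axon guidance genes 21 of 398 (5.28%, 3.48 to 7.93). The splicing factor gene Rbfox1 had 5, the presynaptic adhesion gene Nrxn3 had 3 and the RNA-binding protein gene Elavl4 had 2. Among guidance genes, Efna5 had 3 within 13.1 kb of each other, more than 118 kb from its TSS, and Robo2, Sema3a, Unc5c, Plxna2 and Plxna4 had 2 each.

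Genes of other lineages had such domains too. Pluripotency genes had 3 of 31 (9.68%, 3.35 to 24.9), mesoderm and endoderm factors 3 of 58 (5.17%), dorsal neural tube and crest factors 3 of 75 (4%), forebrain and midbrain factors 5 of 70 (7.14%), immediate early and AP-1 genes 4 of 74 (5.41%), and SoxB and SoxC factors 3 of 72 (4.17%). Glial genes had 0 of 53, which allows a share of up to 6.76%. Of the 19 lists with a no Dox domain, the interval held the share over all genes, 4.85%, in all but the neuronal structure and synapse list, whose lower bound was 5.00, and the Hedgehog list, whose lower bound was 4.86. That share mixes promoter and distal domains. For distal domains alone, the neuronal list had 24 of 287 (8.36%) and the Hedgehog list 7 of 51 (13.7%), against 6.5% over all genes. No intervals were taken for these distal shares.

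**Figure D4:**
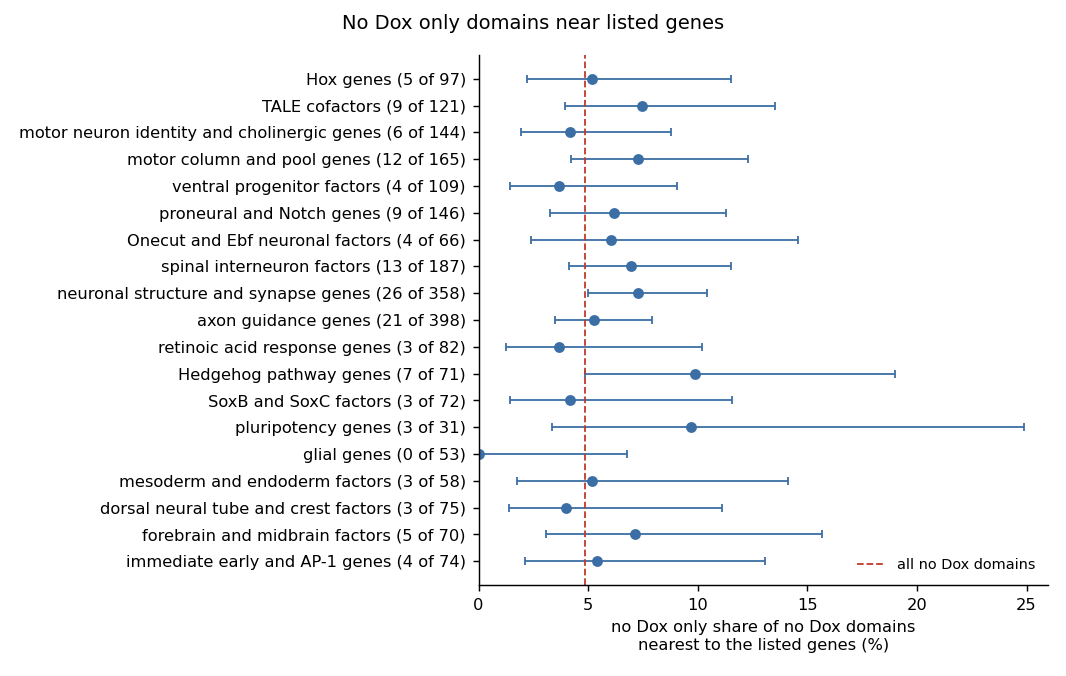
Share of the no Dox domains nearest to the genes of each list that were seen in no Dox only (percent), with 95% Wilson intervals for counting only and, in brackets, the number of domains. The dashed line marks the share over all no Dox domains, 4.85%. Most intervals span the line, and glial genes have 0 of 53.

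The genes nearest to the most no Dox only domains were 19 in number, since 8 tied at 4 domains. Tenm3, a teneurin cell adhesion gene, had 6 of 37 no Dox domains, between 1067 and 2269785 bp from its TSS, and the progenitor list also held 37 there. Schip1 (5 of 22), Tspan5 (5 of 17), the zinc finger gene Bnc2 (5 of 21), the kinase gene Cdk14 (5 of 13), Cpeb2 (5 of 18), the delta glutamate receptor gene Grid1 (5 of 17), Fam19a5 (5 of 21), Rbfox1 (5 of 22) and the lipid kinase gene Pik3c3 (5 of 22) followed. The genes were ranked by no Dox only domains, and the no Dox list held the most domains of 150 bp or more. In all 9 of these genes it held more such domains than each other list, by a margin that includes the domains the rule selects. For example, Cpeb2 had 18 in no Dox, 9 in iHoxc10, 7 in progenitors, 7 in iHoxc6, 5 in iHoxc9 and 4 in EBs. The transcriptional regulator genes Bach2, Tbl1xr1 and Zfp608 and the genes Slc39a11, Cep128, Rapgef5, Mroh2a and Prl2c2 had 4 each. Zfp386 had the most, 9 of 56, and these lay 247024 to 1221023 bp from its TSS, all 9 in the immunoglobulin heavy chain region, a cluster of similar gene segments.

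Few no Dox only domains were grouped. When neighbours less than 50 kb apart were joined, 1795 stood alone, 156 formed pairs, and 23 groups held 3 or more. The largest group held 7 in 55.7 kb at Hjurp and Mroh2a (chr1:88220050-88275795), and all 7 lay within 1 kb of a domain of another list. Mroh2a was the nearest gene to 13 no Dox domains in all, to 5 in progenitors, 4 each in iHoxc6 and iHoxc10, 1 in iHoxc9 and 0 in EBs. A group of 5 in 34.7 kb had the prolactin-like genes Prl2c2 and Prl2c3 as the nearest protein-coding genes, with none in its span, and its domains assigned to Prl2c2 lay 76480 to 96606 bp from the TSS. A further group of 5 lay at Tdpoz3 and Tdpoz4 (51.0 kb), and a group of 4 at the chitinase-like genes Chil3 and Chil4 (48.2 kb). These 3 groups were 34.6%, 55.1% and 59.1% repeat sequence on average. The Tdpoz and Chil genes belong to families of similar copies. How reads that match several copies were placed is not given in the sources used here, so domains in such families and in repeats are uncertain. At single genes, 3 domains each lay within 27.0 kb at Dst, a cytoskeletal linker gene, 49.1 kb at Schip1 and 24.3 kb at Tspan5.

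By base composition, no Dox only domains were close to the domains new at day 4. Their median GC content was 48.1% (47.7 to 48.6), against 47.5% (47.3 to 47.7) in domains new at day 4 and held by an induced list and 52.7% in all no Dox domains shared with another list. Among the sets seen in 1 list, medians ranged from 41.9% in iHoxc9 to 51.0% in EBs. Repeats made up 12.8% of their bases, against 8.85% in domains new at day 4. In the sets seen in 1 other list, repeats made up 8.98% (iHoxc9) to 27.9% (EBs), with 12.7% in progenitors and 10.9% in iHoxc6. Of the 2186, 919 held no repeat base and 129 (5.90%) were more than 50% repeat, compared with 1.71% of domains new at day 4.

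Letter runs of transcription factor sites were searched on both strands in the central 200 bp. TAAT was in 68.0% (66.0 to 69.9) of no Dox only domains, in 77.8% (76.6 to 78.9) of domains new at day 4 and held by an induced list, and in 49.5% of all no Dox domains shared with another list. In windows of equal length 5 kb to either side of the no Dox only domains the share was 67.0% (65.6 to 68.4). Those windows were poorer in GC. Within classes of equal GC content, TAAT was more frequent in no Dox only domains than in the windows and less frequent than in domains new at day 4. At 45 to 50% GC, for instance, the shares were 73.2%, 60.5% and 82.2%, over 568, 1000 and 1430 sequences. The order was the same in each of the 5 GC classes. At 50 to 55% the shares were 54.8%, 43.0% and 66.6%.

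The same order held for sites of several other factors. The PBX-Hox run TGATNNAT was in 14.5% (13.0 to 16.0) of no Dox only domains, 19.6% (18.6 to 20.7) of domains new at day 4 and 10.7% (9.78 to 11.6) of the windows. The palindromic E-box CAGCTG, read by several bHLH proteins, was in 19.3% (17.7 to 21.01), 25.6% (24.4 to 26.8) and 9.06% (8.24 to 9.94). The NEUROG E-box CAGATG was in 22.8% (21.1 to 24.6), 27.5% (26.3 to 28.8) and 15.5% (14.5 to 16.6), and the Onecut run ATCAAT in 13.9% (12.5 to 15.4), 17.4% (16.4 to 18.5) and 8.21% (7.43 to 9.06). For the MEIS run TGACAG, the shares were 20.1% (18.5 to 21.8), 21.2% (20.1 to 22.3) and 13.5% (12.5 to 14.5). The nuclear receptor run AGGTCA was in 18.4% (16.8 to 20.1), 21.7% (20.6 to 22.9) and 12.6% (11.7 to 13.6). No Dox only domains thus lay between flanking sequence and shared day 4 domains for both E-boxes and for the Onecut, PBX-Hox and nuclear receptor runs, and this order also held in each of the 5 GC classes. The run TGATTTAT of PBX and posterior Hox proteins had the same order, with 2.15%, 3.83% and 1.24%. So did the homeodomain run TAATTA, whose matches are also TAAT matches, with 8.14% (7.07 to 9.36), 10.4% (9.63 to 11.3) and 6.40% (5.72 to 7.17). For TAATTA the intervals of no Dox only domains and windows overlapped, and at 55% GC or more their shares were 1.67% and 1.70%. The MEIS shares of no Dox only and shared day 4 domains had overlapping intervals. Domains seen only in iHoxc6 had the PBX-Hox run in 12.3%, CAGCTG in 17.99%, CAGATG in 24.4%, ATCAAT in 12.5% and AGGTCA in 17.6%. These shares also lay between those of the windows and of domains new at day 4. The order is therefore not particular to no Dox only domains. For iHoxc6 it had exceptions by GC class, with PBX-Hox in 17.3% against 18.6% of windows under 40% GC. At 55% GC or more, AGGTCA was in 10.97% against 13.1%.

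The posterior Hox run was ordered otherwise, and for the SOX run and the GC box the intervals of no Dox only domains and domains new at day 4 overlapped. The posterior Hox core ATAAA was in 39.5% (37.5 to 41.6) of no Dox only domains, 47.3% of domains new at day 4, 49.2% of the GC-poorer windows and 84.5% (82.6 to 86.2) of the domains seen only in iHoxc9. Within GC classes its direction against the windows varied, with 69.5% against 78.1% under 40% GC and 42.6% against 38.6% at 45 to 50%. The SOX run ACAATG was in 13.4% (12.04 to 14.9), near the 14.1% of domains new at day 4 and below the 28.1% (26.6 to 29.6) of domains seen only in progenitors. The GC box GGGCGG was in 4.44% (3.65 to 5.38), close to 4.56% in domains new at day 4 and far from 22.8% in all shared no Dox domains. Compared with domains seen only in iHoxc6, the same line under Dox, no Dox only domains had TAAT in 68.0% against 73.3% (70.7 to 75.8), ACAATG in 13.4% against 19.5% (17.4 to 21.9) and CAGATG in 22.8% against 24.4% (22.01 to 26.9), the last with overlapping intervals. The iHoxc6 only domains were poorer in GC, and within the 5 GC classes the TAAT shares were 94.0% against 94.4%, 87.3% against 87.9%, 73.2% against 76.4%, 54.8% against 60.6% and 31.7% against 31.0%. Over all 28 runs, the interval of no Dox only domains lay below that of domains new at day 4 for 9, overlapped it for 19 and lay above it for 0. A match is a description of letters and does not show that a factor was bound.

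**Figure D5:**
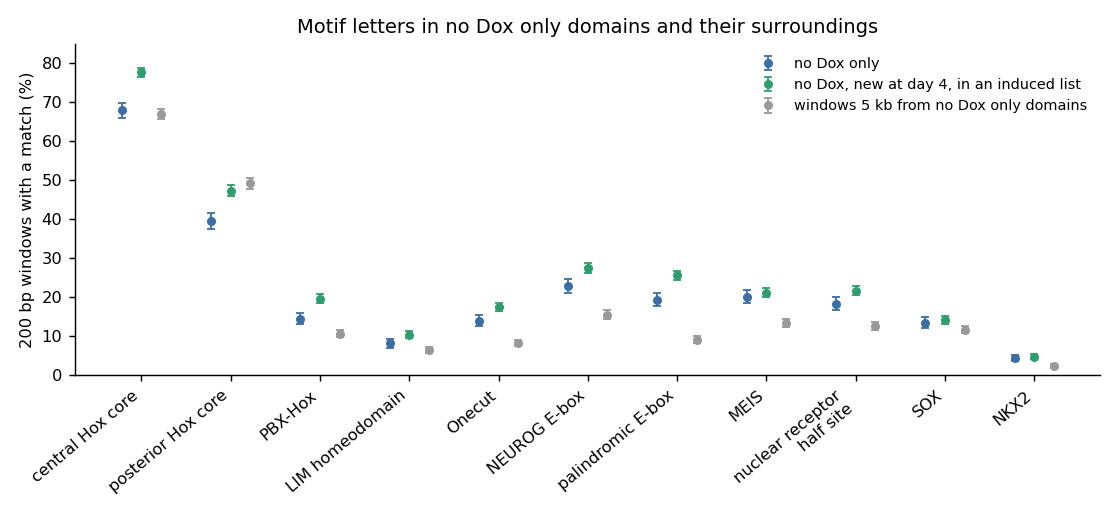
Share of 200 bp windows (percent) with a match to the letter run of each factor, for no Dox only domains (n = 2186), domains new at day 4 and held by an induced list (n = 5196) and windows 5 kb to either side of the no Dox only domains (n = 4372). Error bars are 95% Wilson intervals. The palindromic E-box is CAGCTG. For the E-boxes, Onecut, PBX-Hox and nuclear receptor runs, no Dox only domains lie between the other sets.

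All 6-letter runs were also compared, without a list of factors. They were ranked by their difference on odd-numbered chromosomes and then read on even-numbered ones. Against domains new at day 4, the 5 runs with the largest shortfall in no Dox only domains on odd chromosomes were led by TAATGA, which holds a homeodomain core, and included the E-box CAGCTG. All 5 were also less frequent on even chromosomes. CAGCTG, for example, was in 19.0% against 26.2% on odd and 19.4% against 25.2% on even chromosomes. The run most frequent by comparison on odd chromosomes, AAAAAA, was in 15.9% against 10.8% there and in 13.3% against 12.4% on even ones. Compared with progenitor only domains, the SOX-like run ACAAAG and the SOX run ACAATG were less frequent in no Dox only domains, with 17.8% against 36.9% and 13.6% against 27.4% on even chromosomes, and CAGCTG was more frequent, with 19.4% against 11.7%.

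Of the 10 widest no Dox only domains, 8 were intergenic and 2 lay in introns, of Sbk1 and Ptprd. Both of the widest measured 767 bp. The first, at chr11:6656220-6656986, lay 1.53 kb from the TSS of Ramp3, the gene of a receptor activity-modifying protein, and 1022 bp from an EB domain. The second, at chr12:26620960-26621726, is the isolated domain printed above. In the 10 kb around it, no Dox domains covered 817 bp, while the EB, progenitor, iHoxc6, iHoxc9 and iHoxc10 lists covered 0 bp each. The same held for a 668 bp domain 186 kb from Hs3st5 (chr10:36320023-36320690), a 667 bp domain 162 kb from Eci2 (chr13:35189015-35189681) and a 625 bp domain in an intron of the receptor phosphatase gene Ptprd (chr4:76203252-76203876), each with 0 bp from every other list. By contrast, the 766 bp domain at chr5:54179003-54179768, 63.1 kb from the calcium sensor gene Stim2, had a progenitor domain 388 bp away, and progenitor, iHoxc6 and iHoxc10 domains covered 676, 630 and 606 bp of its surroundings. A 660 bp domain at chr16:3268207-3268866 was 92.0% repeat sequence.

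By chromosome, no Dox only domains made up 3% (2.11 to 4.25) of no Dox domains on X, 3.54% (2.60 to 4.80) on 19 and 4.33% to 5.56% on the other autosomes. On Y there were 0 of 39. The intervals of all autosomes but 19 held the share over all chromosomes.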

How the data were processed

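ATAC-seq was measured in 12 samples of 6 groups, 2 samples per group. The authors mapped paired-end reads to mm10 with Bowtie2 (2.2.2 per the submitters' processing notes, which also name Picard 2.8.2) and called domains with DomainFinder. Its thresholds are not given in the sources used here. The deposited lists hold coordinates in bp from both replicates pooled, with no score. Starts were read as counted from 0, which is not stated, and are printed counting from 1, so edges are uncertain by 1 bp. Genes and TSS came from GENCODE M21, and sequence with its repeat masking from RefSeq GRCm38.p6. A domain was assigned to the nearest TSS of a protein-coding gene. Promoters were 1 kb to either side of a TSS, and other classes were read at the midpoint. Intervals are 95% Wilson intervals, or order statistics for medians. The 28 letter runs and 20 gene lists, like the domains, were chosen with earlier results of these data known. Named genes were listed genes with a domain and the 15 genes nearest to the most, extended by ties, and a few of them are not reported here. Named sites were the 10 widest, the widest per list, the narrowest and those just outside the rule. The code was tested on simulated data: 13 checks were run and 0 differed. Python 3.11.15, NumPy 2.4.6, SciPy 1.17.1 and Matplotlib 3.10.9 were used.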

Additional observations from a re-analysis of the deposited data

How the results depend on the processing

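No paired analysis was possible because each list pools both replicates, and for the same reason no replicate could be left out. Membership depended on width and on what counted as shared. From 2186, the number of no Dox only domains became 24168 at any width, 333 at 300 bp and 33 at 500 bp, which follows from the width minimum itself. It was 6702 where other lists had to cover 50% of a domain, 6073 where only domains of 150 bp or more counted in the other lists, and 3517 without the iHoxc6 list. The promoter share of 11.5% became 9.94% when domains within 200 bp of another list were dropped, 5.67% at 500 bp and 28.5% at 5 kb to either side of a TSS, and 14.8% with the TSS of all genes, and the intronic share became 42.8% when domains within 200 bp of another list were dropped. The median TSS distance of 24.6 kb became 19.1 kb at any width, 37.0 kb at 300 bp and 9.84 kb with the TSS of all genes, and median GC became 51.7% at any width and 47.1% at 300 bp. TAAT was in 71.5% at 300 bp and 70.5% in whole domains, ATAAA in 43.5% and 42.6%, and CAGATG in 26.9% of whole domains. By gene body or 5 kb upstream, 61 listed genes had a domain instead of 98. The share on X became 0.711% at 300 bp, while relative to all chromosomes it was 0.619 and then 0.638 times. Beyond the choices that act by construction, the cause was not tested. Of 53 alternatives to the main results, 30 stayed within the interval, or for counts within 1.5 times, of the value reported, and 23 did not. Whether any comparison between sets reversed was not checked. Chosen after seeing the data were starts counted from 1 in the no Dox list alone (2207 domains) or in the other lists alone (2185), and leaving out domains mostly of repeats, under which TAAT was in 68.3%. Without read depth, a domain below the calling threshold in another list cannot be told apart from one that is closed there.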

Other observations

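Values outside the comparisons above were read after the results were seen. In the immunoglobulin heavy chain region (chr12:113254830-116010093), 12 of 82 no Dox domains (14.6%) were seen in no Dox only, and 11 of the 12 lay within 1 kb of a domain of another list. The region held 90 domains of 150 bp or more in EBs, 62 in progenitors, 57 in iHoxc6, 42 in iHoxc9 and 31 in iHoxc10. All 9 domains assigned to Zfp386 lay there. Since its gene segments resemble each other, domains in this region are uncertain.

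On unplaced sequences, which entered no comparison, 78 no Dox domains were 150 bp or wider, and 2 of these overlapped no other list.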
